A study of Mus musculus with 145 samples.

Results

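Germline-derived pluripotent stem cells (gPSCs), which were obtained from mouse spermatogonial stem cells (SSCs), were compared with mouse embryonic stem cells (ESCs) at the level of single-cell transcriptomes. The cells were chosen by library alone: 48 cells of gPSCs at passage 1 (p1), 32 cells at passage 15 (p15) and 45 ESCs, which made 125 of the 4464 annotated cells that the series profiled by modified STRT-seq. The remaining cells were SSCs under reprogramming, sampled over its course, and 95 of them, the SSCs of day 0, were used here only as a reference for the cells of origin. The 80 gPSC cells and the ESCs carry the strain label C57BL/6[female] X DBA[male] and the treatment label none. By the account of the study, the SSCs came from early postnatal male pups with an *Oct4*-EGFP reporter, and the gPSCs were raised from their reporter-positive colonies without the 5 chemicals tested elsewhere in the series. The ESCs were derived from *Oct4*-EGFP blastocysts of the same cross, and their passage is not given in the labels. Both were maintained in N2B27 with the inhibitors CHIR99021 and PD0325901 and LIF (2iL) on mouse embryonic fibroblast feeders. The labels of the gPSC libraries give the medium and the passage but not which line was sequenced, so that it is not known whether p1 and p15 are passages of the same line (gPSC-1 is a line named in the study).

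In 2iL, CHIR99021 blocks GSK3 and so raises Wnt signalling, PD0325901 blocks MEK and so lowers ERK signalling, and LIF acts through STAT3. Cells under these conditions keep the naive pluripotent state, which is held by a network of transcription factors around OCT4, SOX2, NANOG, ESRRB and the KLF factors. Germline-derived lines differ from ESCs in origin, since male germ cells carry a paternal pattern of imprints whereas blastocyst-derived cells carry one parental pattern of each kind. The comparison of gPSCs with ESCs asks which genes set the derived cells apart from their embryonic counterpart in the same medium.

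Each group was 1 library, so no test between groups was possible, and no p-value or standard error is given. Values are pooled CPM (UMIs per 1000000), for which the UMIs of a gene were summed over the cells of a library and scaled by the total of that library, with an exact Poisson 95% interval in brackets at the main genes. These intervals, and those of the folds, cover counting error only, and not the spread between cultures. The libraries held 14035664 UMIs (gPSC p1), 10833720 (gPSC p15) and 14807169 (ESC), with per-cell medians of 283965, 356973 and 321636 UMIs and of 7550, 9350 and 8220 detected genes. No cell identifier and no identical count profile was shared between these libraries. A count of 0 allowed up to 0.214, 0.277 and 0.203 CPM (3 counts per library). In the deposited cell annotation the column named Batch gives 1 code for both gPSC libraries and another for the ESC and the SSC day 0 library, so that batch and the contrast of gPSC with ESC cannot be told apart. The SSC day 0 value, from the same batch code as ESC, is given as a reference beside many of the leading genes.

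The label of a pluripotent line was checked first. *Nanog*, a core factor of the naive network, was at 342 CPM (332–352) in gPSC p1, 439 (426–451) in gPSC p15 and 521 (509.5–533) in ESC, and had a UMI in every cell of the 3 libraries. *Esrrb*, an orphan nuclear receptor of the same network, was at 135, 297 and 110.4 CPM and was likewise found in every cell. *Prdm14*, which restrains ERK signalling and de novo methylation in naive cells, was at 25.1, 85.1 and 68.9 CPM, with a UMI in 32 of 48, 31 of 32 and 44 of 45 cells. *Pou5f1* (OCT4) was at 48.4, 32.03 and 32.6 CPM and *Sox2* at 307, 473 and 174 CPM. In SSC day 0 the corresponding values were 0.415 (*Nanog*), 1.48 (*Esrrb*), 0 (*Prdm14*), 2.25 (*Pou5f1*) and 12.1 CPM (*Sox2*). Of the markers of spermatogonia and germ cells, *Zbtb16*, *Dmrt1*, *Gfra1* and *Ddx4* lay between 0 and 9.32 CPM in the 3 libraries against 33.2 to 470.3 CPM in SSC day 0. Others were above 9.32 CPM, such as *Dazl* and *Crabp1* in all 3 libraries, *Taf4b* in both gPSC libraries and *Id4* at p15 only. Their values are given further on. The 12 fibroblast markers of the feeder list summed to 4.77, 14.03 and 10.4 CPM, with the collagens *Col1a2* and *Col3a1* and the matrix genes *Postn* and *Lum* at 0 in all 3. The collagen *Col1a1* was the 1 member that entered, with 38, 130 and 61 UMIs, and carried most of the p15 sum, with log2 ratios of −0.47 and 1.34. The genes of primitive endoderm *Gata4*, *Gata6*, *Sox17* and *Sox7* reached at most 2.86 CPM, and the 13 measured genes of the 2-cell list summed to at most 0.462 CPM.

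Of 28692 genes in the files, 9591 had at least 10 CPM in at least 1 of the 3 libraries and entered the comparison. The log2 ratio of a gene is that of (CPM gPSC + 1) over (CPM ESC + 1), and a gene was counted when this ratio was at least 1 in size, that is 2-fold, in the same direction at p1 and at p15. By this rule 453 genes (4.72% of those that entered) were higher in gPSCs than in ESCs at both passages and 268 (2.79%) were lower. With each passage taken by itself, and genes counted at both included, at p1 641 genes (6.68%) were at least 2-fold higher and 930 (9.70%) lower, and at p15 1927 genes (20.1%) were higher and 683 (7.12%) lower, while 122 genes passed 2-fold in opposite directions. The ratios at both passages share the ESC library, and they cannot be taken as independent. The median log2 ratio of all genes that entered was −0.09 at p1 and −0.02 at p15. Among the higher genes 314 had a UMI in at least 50% of the cells of each gPSC library, and among the lower genes 196 had one in at least 50% of the ESCs. At least 8-fold at both passages were 6 higher and 18 lower genes.

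**Figure D1:**
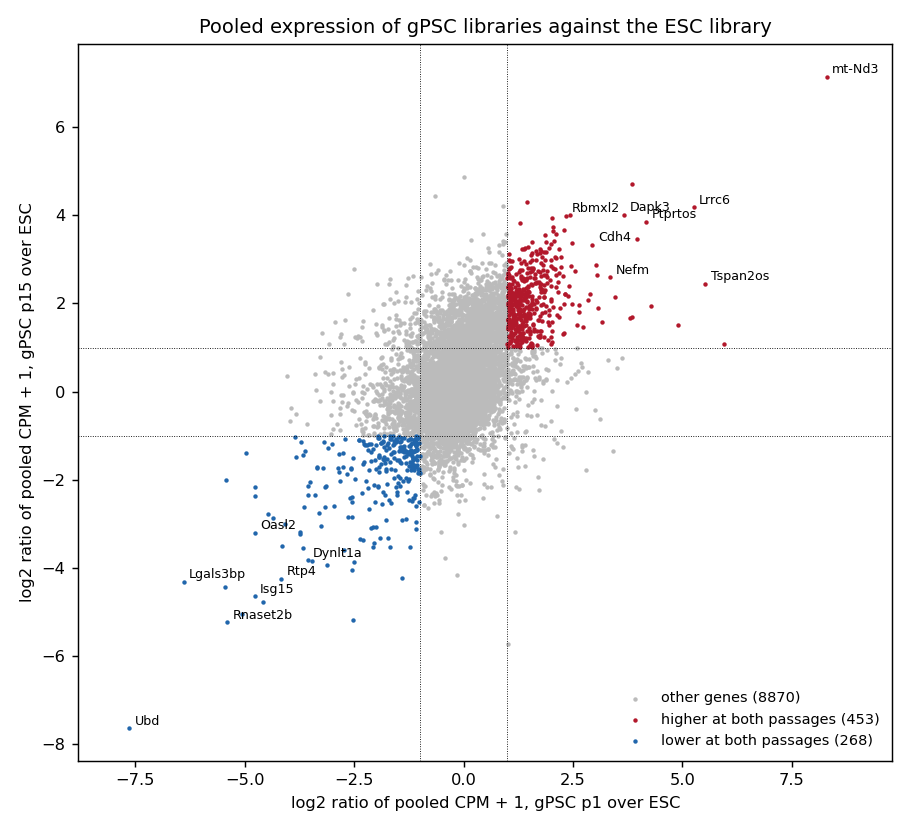
Log2 ratio of pooled CPM + 1 to the ESC library at p1 (x axis) and p15 (y axis) for the 9591 genes that entered, 1 point per gene; dotted lines mark 2-fold. The 453 genes higher at both passages and the 268 lower at both are coloured, with *mt-Nd3* and *Ubd* farthest from the centre, and labels are given to those leading genes whose names do not overlap.

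Several of the 12 leading lower genes are known to be induced by interferon. *Ubd*, which encodes a ubiquitin-like modifier inducible by interferon gamma (chr17:37193892-37196095, plus strand), had 0 UMIs in the 48 p1 cells, 0 in the 32 p15 cells and 2922 UMIs in ESC, or 197 CPM (190.2–205). The gene was thus at least 923-fold lower at p1 and at least 713-fold lower at p15. It was found in 44 of 45 ESCs, where the level per cell ranged from 0 to 397 CPM with a median of 212, and the per-cell values of the libraries overlapped only at 0. In SSC day 0 it was also at 0. *Isg15*, another ubiquitin-like modifier and a common marker of an interferon response, had 0 UMIs at p1, 1 UMI at p15 and 389 UMIs in ESC (26.3 CPM, 23.7–29.02), and SSC day 0 had 13.1 CPM. This made it at least 123-fold lower at p1 and 285-fold lower at p15, with a counting interval of 50.8 to 11270. Its ESC distribution was broad: 25 of 45 cells had a UMI, the median cell had 2.24 CPM and the highest 202 CPM. *Oasl1* and *Oasl2*, relatives of the oligoadenylate synthetases, were at 0 CPM at p1, at 1.02 and 1.94 CPM at p15 and at 42.4 and 26.1 CPM in ESC. *Lgals3bp*, a secreted galectin-binding glycoprotein, was at 0, 3.23 and 83.0 CPM. *Rtp4*, an interferon-induced receptor transporter, was at 2.28, 2.12 and 58.1 CPM, and *Igtp*, an immunity-related GTPase, at 1.14, 0.646 and 22.6 CPM. In SSC day 0 *Oasl2* (30.03 CPM) and *Igtp* (32.8 CPM) were above their ESC level, whereas *Oasl1* (9.95), *Lgals3bp* (5.80), *Rtp4* (7.11) and *Isg15* were between the gPSC and the ESC values.

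The starts of genes of this kind can be read beside these values. The reference sequences below run from 250 bases before to 50 bases after the annotated start of 3 lower genes in RefSeq (GRCm38.p6), 5′ to 3′ on the strand of the gene. Capitals mark matches to GAAANNGAAA, the core letters of the interferon-stimulated response element, which was looked for on both strands (TTTCNNTTTC on the other) and chosen after the values were seen. The genes were picked because they hold a match: of the 12 leading lower genes 8 had an entry in the table, and 2 of these held one. Shown are *Isg15* (chr4:156200769-156201068, minus strand), with 3 matches that overlap each other and begin 78 bases before the start, *Igtp* (chr11:58199306-58199605, plus strand), with 1 match beginning 34 bases before it, and *Bst2* (chr8:71537423-71537722, minus strand), with 2 overlapping matches beginning 130 bases before it.
Isg15: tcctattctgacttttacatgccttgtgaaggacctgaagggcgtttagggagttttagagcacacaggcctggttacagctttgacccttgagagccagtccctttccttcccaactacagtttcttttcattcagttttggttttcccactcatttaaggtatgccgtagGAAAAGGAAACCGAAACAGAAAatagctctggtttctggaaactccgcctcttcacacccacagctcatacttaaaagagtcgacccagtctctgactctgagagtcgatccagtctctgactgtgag
Igtp: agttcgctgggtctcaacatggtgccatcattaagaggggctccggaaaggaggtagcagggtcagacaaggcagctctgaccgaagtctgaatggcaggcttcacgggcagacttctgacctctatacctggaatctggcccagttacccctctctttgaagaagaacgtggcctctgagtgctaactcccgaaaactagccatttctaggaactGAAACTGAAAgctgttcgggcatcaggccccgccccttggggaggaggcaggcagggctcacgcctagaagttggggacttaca
Bst2: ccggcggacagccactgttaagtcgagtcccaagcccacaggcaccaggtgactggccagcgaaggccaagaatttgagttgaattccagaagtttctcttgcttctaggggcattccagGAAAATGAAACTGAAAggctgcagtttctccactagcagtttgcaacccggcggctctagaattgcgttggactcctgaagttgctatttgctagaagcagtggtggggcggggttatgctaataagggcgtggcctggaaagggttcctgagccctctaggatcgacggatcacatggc
Of all 27025 promoters in the table, 943 (3.49%) held a match, and 5 of the 10 promoters found for the 11 genes of the MHC class I and interferon list did. Besides *Isg15* and *Bst2* these were *B2m*, *Ifitm2* and *Ifitm3*, none of which was lower than ESC at both passages. A match is a sequence of letters and was not shown to be bound.

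The MHC class I and interferon list, chosen with earlier results of these data known, put these genes in a wider group. The list shares *Isg15* with the leading lower genes, so its counts are not independent of theirs. Of its 11 members 9 entered, of which 4 were lower at both passages (2.79% of all genes were) and none was higher, with a median log2 ratio of −1.70 at p1 and −1.28 at p15. *Isg15*, at 0 UMIs at p1, was the lowest of the 9 and did not set these medians. *Bst2* (tetherin), which holds budding virus at the cell surface, was at 100.1 CPM (94.9–105) at p1, 73.0 (68.0–78.3) at p15 and 358 (349–368) in ESC. Every ESC had at least 81.6 CPM of it, with a median of 361, whereas the median gPSC cell had 70.2 CPM at p1 and 55.1 at p15. *H2-D1*, a classical MHC class I heavy chain, was at 19.02, 26.3 and 74.8 CPM. The related heavy chain *H2-K1* was at 24.3, 45.7 and 81.0 CPM and passed 2-fold at p1 only (log2 ratio −1.70 and −0.81), and *B2m*, the light chain, at 100.2, 39.4 and 97.1 CPM passed it at p15 only. The 3 *Ifitm* members stayed within 2-fold of ESC: *Ifitm1* at 340.1, 359 and 426 CPM, *Ifitm2* at 796, 661 and 623 CPM and *Ifitm3* at 549.9, 484 and 667 CPM. *Tap1* and *Psmb8* did not reach 10 CPM, with 0 UMIs at p1, at most 0.462 CPM at p15 and 3.04 and 3.58 CPM in ESC. The 11 genes summed to 1940.4 CPM at p1, 1700.2 at p15, 2412 in ESC and 1326 in SSC day 0, which was the lowest sum, although SSC day 0 was above ESC at *H2-D1* (275 CPM) and *B2m* (254 CPM).

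Other leading lower genes encode unrelated proteins. *Myo1f*, an unconventional myosin known from leukocytes (chr17:33555707-33607764), had 1 UMI in each gPSC library and 514 in ESC (34.7 CPM, 31.8–37.8), a ratio of 487 (87.1–19281) at p1 and 376 (67.2–14883) at p15. *Nrip2*, a nuclear receptor-interacting protein, was at 0.285, 0.831 and 16.1 CPM, and among ESCs the median cell had 2.94 CPM and the highest 997 CPM. *Rnaset2b*, *Pnp2* and *Dynlt1a* have near-identical copies between which the counting could split reads, and their values are uncertain. *Rnaset2b*, a secreted ribonuclease, had 3 and 4 UMIs in gPSCs and 748 in ESC, while its copy *Rnaset2a* was at 90.3, 163 and 124 CPM. *Pnp2*, a purine nucleoside phosphorylase, had 2, 0 and 391 UMIs, while *Pnp* was at 118, 88.8 and 159 CPM, and the 2 annotated loci overlap. *Dynlt1a*, a dynein light chain, had 6, 2 and 234 UMIs, while *Dynlt1f* was at 74.8, 77.4 and 81.9 CPM. In each case a copy stayed within 2-fold of ESC at both passages. SSC day 0 was below ESC at *Myo1f* (6.69 CPM), *Nrip2* (3.08), *Rnaset2b* (7.94), *Pnp2* (0.474) and *Dynlt1a* (0.651), and above both gPSC libraries at each of these.

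**Figure D2:**
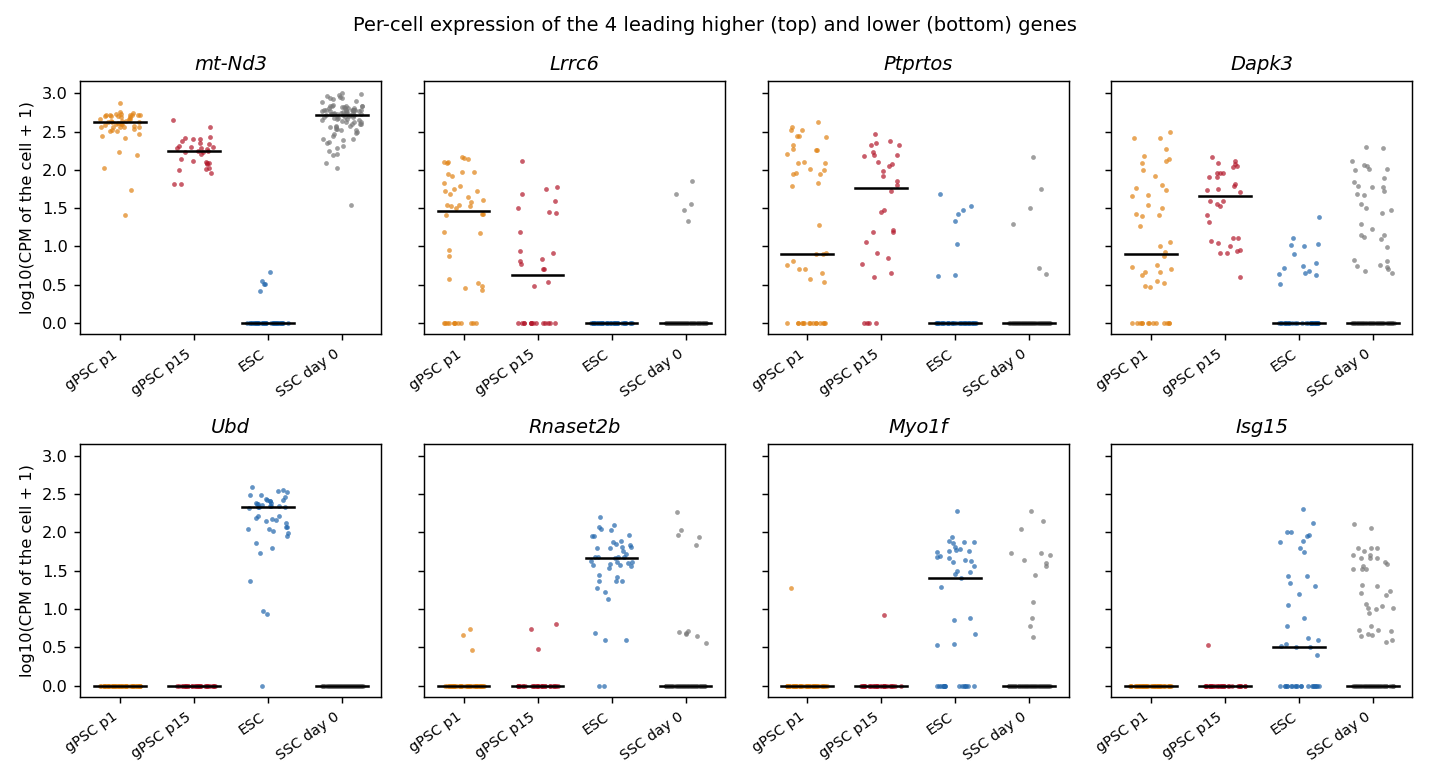
CPM of each cell, on a log10(CPM + 1) axis, for *mt-Nd3*, *Lrrc6*, *Ptprtos* and *Dapk3* (top, higher in gPSCs) and *Ubd*, *Rnaset2b*, *Myo1f* and *Isg15* (bottom, lower) in gPSC p1, gPSC p15, ESC and SSC day 0; 1 point per cell, black bar for the median. *Ubd* is seen in ESC only, and *mt-Nd3* is low in ESC only.

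Toward higher expression, 1 gene stood far from the others. *mt-Nd3*, a subunit of respiratory complex I encoded by the mitochondrial genome (chrM:9459-9806), was at 421 CPM (410.1–432) in gPSC p1, 188 (180.1–197) in gPSC p15 and 0.338 (0.110–0.788) in ESC, where 5 cells had 1 UMI each. This was 1246-fold (534–3839) at p1 and 557-fold (238–1718) at p15 in counted UMIs, and as the reads were not analysed here and the annotation and strand setting of the counting are not given, the low ESC count was not checked beyond the count table. Each gPSC cell had at least 24.8 CPM and each ESC at most 3.62 CPM, so the cells of the libraries did not overlap, and SSC day 0, which has the batch code of ESC, was at 522 CPM with at least 34.1 CPM in every cell. The other mitochondrially encoded genes did not share this difference: *mt-Nd1*, *mt-Nd2* and *mt-Cytb* had log2 ratios between 0.01 and 0.72. Of the 13 genes, 8 entered and *mt-Nd3* was the single one at least 2-fold different at both passages, with list medians of 0.33 and 0.39. The percent of UMIs from mitochondrially encoded genes had medians of 0.785, 0.722 and 0.600 per cell.

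The other leading higher genes were low or absent in ESC. *Lrrc6*, an assembly factor of motile cilia (chr15:66379858-66500910), was at 37.3 CPM (34.2–40.7) at p1 and 17.1 (14.7–19.7) at p15 with 0 UMIs in ESC, at least 184-fold and at least 84.3-fold higher. It was found in 36 of 48 and 18 of 32 gPSC cells, with per-cell medians of 28.2 and 3.23 CPM, and at 1.78 CPM in SSC day 0. *Dapk3*, a kinase of cell death and myosin regulation, was at 40.8, 52.3 and 2.296 CPM, 17.7-fold (12.6–25.9) and 22.8-fold (16.1–33.2) higher, and SSC day 0 was at 17.5 CPM. All 32 p15 cells had a UMI of it and 14 of 45 ESCs did, whereas the p1 cells ranged from 0 to 310 CPM. *Cdh4* (R-cadherin), an adhesion molecule, was at 35.8, 47.1 and 3.78 CPM, with a p1 median of 25.3 CPM per cell and 1 p1 cell at 538. *Aard* was at 33.1, 29.4 and 3.17 CPM and *Cachd1*, a transmembrane protein related to calcium channel subunits, at 42.5, 48.8 and 6.48 CPM; both were near 0 in SSC day 0 (0.118 and 0.829 CPM). *Nefm*, the medium neurofilament chain, was at 180.2, 107 and 16.8 CPM and was found in 46 of 48, 29 of 32 and 21 of 45 cells. *Rbmxl2*, a retrogene of an RNA-binding protein known from the male germline, was at 67.9, 212 and 12.5 CPM. Every p15 cell held at least 74.98 CPM of it and the median ESC held 0, while SSC day 0 was at 8.41 CPM. *H1fx*, a linker histone variant, was at 23.2, 61.5 and 3.92 CPM. SSC day 0 was above ESC at *Nefm* (49.1 CPM), *Cdh4* (11.1 CPM) and *H1fx* (9.77 CPM), as at *Dapk3*, and below it at *Ptprtos* (3.85 CPM). *Ptprtos* (114, 91.7 and 5.403 CPM) and *Tspan2os* (45.1, 4.43 and 0 CPM) are annotated as antisense transcripts of *Ptprt* and *Tspan2*, and as the strand setting of the counting is not given, reads of the pair may not be told apart. Genes with 0 UMIs in ESC and higher at both passages were 4, *Lrrc6* and *Tspan2os* by the rule, and *Zfy1* (61.2 and 1.11 CPM) and the unnamed model *Gm26737* (13.4 and 25.3 CPM), which were added after their values were seen.

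Most pluripotency factors were within 2-fold of ESC at p1, and several were above it at p15. Of the 13 naive factors, which all entered, 1 was higher at both passages (4.72% of all genes were) and none lower, with medians of 0.09 at p1 and 0.30 at p15. This was *Klf2*, a KLF factor that sustains naive self-renewal, at 322 CPM (312–331) at p1, 429.7 (417–442) at p15 and 101 (95.6–106) in ESC. The median gPSC cell had 262 and 410 CPM of it and the highest ESC 247 CPM, and the lowest p15 cell, at 243 CPM, was close to that maximum. *Esrrb* (log2 ratio 0.29 and 1.42), *Klf4* (−0.12 and 1.48), *Klf5* (0.96 and 1.34) and *Nr5a2* (0.24 and 2.05) passed 2-fold at p15 only, so that with *Klf2* 5 of 13 were higher there (20.1% of all genes were). *Klf5* was just under 2-fold at p1, and its call there depends on the scaling. *Prdm14* was the 1 member lower at p1 (−1.42, then 0.30). *Tbx3*, *Zfp42* (REX1), *Nr0b1*, *Fbxo15*, *Tfcp2l1*, *Gbx2* and *Nanog* lay within 2-fold of ESC at both passages. The summed CPM of the list had per-cell medians of 2545, 3299 and 2342, against 129.7 in SSC day 0. None of the 18 core pluripotency genes was counted in either direction, with medians of 0.29 and 0.21. *Pou5f1* had log2 ratios of 0.56 and −0.02 and *Sox2* of 0.82 and 1.44, *Utf1* (1.03) and *Lin28a* (1.18) passed 2-fold at p1 only, and *Sox2*, *Trim28*, *Fgf4* and *Mybl2* at p15 only. Of 12 formative and primed genes 5 entered, with medians of 1.17 and 0.96. At p1 3 of them were at least 2-fold higher (6.68% of all genes were), *Foxd3*, *Sox11* and *Zic2*, and at p15 *Foxd3* alone. *Foxd3*, a factor active as naive cells advance toward the epiblast state, was thus the 1 member counted, at 12.8, 30.9 and 3.85 CPM, a call that was lost when cells were thinned to 100000 UMIs each, which also left out 6, 2 and 3 shallower cells. *Otx2* stayed below the entry level at 1.71, 9.88 and 0.0675 CPM.

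**Figure D3:**
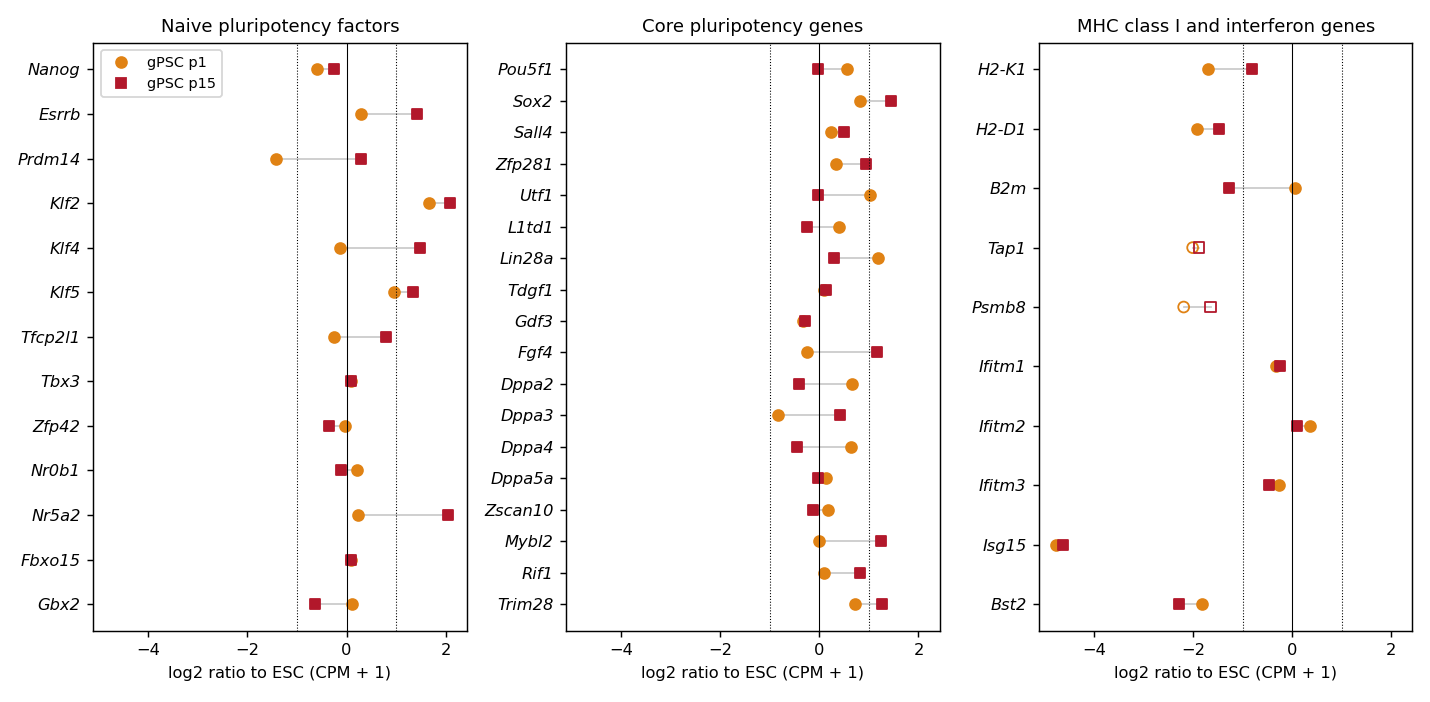
Log2 ratio to ESC (CPM + 1) at p1 (circles) and p15 (squares) of each naive pluripotency factor, core pluripotency gene and MHC class I and interferon gene shown; hollow symbols mark genes under 10 CPM in all 3 libraries and dotted lines mark 2-fold. Most core factors lie within 2-fold, *Klf2* lies above it at both passages, several naive factors do at p15 only, *Prdm14* is below it at p1, and *H2-D1*, *Isg15* and *Bst2* lie beyond −1 at both passages.

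Genes of the signals that 2iL acts on were looked at next. Of 18 ERK feedback genes 11 entered, 3 were higher at both passages and 1 was lower (4.72% and 2.79% of all genes), with medians of 0.70 and 0.49. The 3 higher members were Sprouty genes, which encode receptor tyrosine kinase antagonists. *Spry4* was at 15.6 CPM (13.6–17.8), 11.6 (9.69–13.8) and 1.01 (0.567–1.67), 15.4-fold (9.14–27.99) and 11.5-fold (6.70–21.1) higher, and SSC day 0 was at 12.3 CPM. *Spry2* was at 64.1, 33.5 and 15.2 CPM and *Spry1* at 18.95, 17.4 and 6.82 CPM. After thinning, *Spry4* was found in 21 of 42 p1 cells, 15 of 30 p15 cells and 0 of 42 ESCs. Without thinning these were 30 of 48, 28 of 32 and 4 of 45 cells. *Dusp6*, a phosphatase of ERK, was at 51.0, 18.3 and 12.7 CPM and passed 2-fold at p1 only. *Etv4* (123, 124 and 92.8 CPM) and *Etv5* (204, 253 and 265 CPM), ERK-responsive factors, stayed within 2-fold, and *Egr1* and *Fos* were below 10 CPM. The member that was lower was *Ier3* (6.70, 6.55 and 14.7 CPM), which was no longer counted with TMM or median-of-ratios scaling, with equal weight per cell or after thinning.

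Of 12 Wnt target genes 9 entered, and 1 was higher and 2 were lower at both passages (4.72% and 2.79% of all genes), with medians of −0.18 and −0.14. *Znrf3*, a ubiquitin ligase that removes Wnt receptors, was at 88.1, 81.6 and 39.4 CPM, and without the highest cell of each library or as a mean over cells it was below 2-fold at 1 passage or both. *Dkk1*, a secreted Wnt antagonist, was at 1.85, 1.48 and 16.9 CPM and *T* (Brachyury) at 2.64, 5.45 and 20.7 CPM, with a UMI of *T* in 12 of 48, 7 of 32 and 31 of 45 cells. *Axin2*, a direct target, was at 75.3, 77.3 and 85.2 CPM and *Sp5* at 116, 136 and 189 CPM, within 2-fold. None of the 9 LIF and STAT3 genes was counted (medians 0.06 and 0.46), *Stat3* being at 89.8, 96.6 and 102 CPM, and none of the 8 Nodal pathway genes that entered. *Lefty2*, a Nodal antagonist, was at 71.2 CPM at p1, 339 at p15 and 249.6 in ESC, lower than ESC at p1 only. In the BMP list *Id2*, an inhibitor of basic helix-loop-helix factors, was at 9.97, 4.98 and 33.5 CPM and was the 1 of 7 members counted (2.79% of all genes were lower).

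Of 18 genes of SSCs, the cells of origin, 7 entered, 1 was lower at both passages and none higher (2.79% and 4.72% of all genes were), with medians of 0.52 and 1.61. At p15, taken by itself, 5 of the 7 were at least 2-fold higher than ESC (20.1% of all genes were). The 18 genes summed to 194 CPM at p1, 384 at p15, 298 in ESC and 2549 in SSC day 0. *Crabp1*, a retinoic acid-binding protein, was lower at 14.04, 15.3 and 56.6 CPM and reached 279 CPM in SSC day 0. *Id4* was at 5.20, 36.9 and 2.16 CPM and *Taf4b* at 13.5, 39.3 and 9.12 CPM, above 2-fold at p15 only, as were *Itga6* (log2 ratio 1.61), *Foxo1* (1.63) and *Sohlh2* (1.41). *Ret*, the receptor for GDNF, was at most 0.473 CPM in the 3 libraries and 82.1 in SSC day 0. Among 21 germline genes whose promoters are methylated in somatic cells, 7 entered and *Stk31* was the 1 higher at both passages (4.72% of all genes were), at 10.8, 14.3 and 3.65 CPM against 413 in SSC day 0, a call that was lost after thinning. *Dazl*, an RNA-binding protein of germ cells, was at 41.9, 55.7 and 43.2 CPM with a UMI in 23 of 48, 29 of 32 and 31 of 45 cells, against 871 CPM and all 95 cells in SSC day 0. *Ddx4* was at 2.56, 0.831 and 3.44 CPM against 470.3. Of the primordial germ cell list, *Prdm1* (BLIMP1) was lower at both passages, at 12.7, 10.8 and 30.7 CPM, while *Kit* (30.6, 98.2 and 90.6 CPM) was lower at p1 only and *Nanos3* (24.0, 56.1 and 48.8 CPM) just missed 2-fold at p1. The X-linked homeobox gene *Rhox5* was at 413, 147 and 86.8 CPM, above 2-fold at p1 only.

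Imprinted genes bear on the paternal pattern of imprints that male germ cells carry. Of 27 paternally expressed genes in the files 16 entered, and none was counted in either direction. Their median log2 ratio was −0.04 at p1 and 0.94 at p15, where 8 were at least 2-fold higher (20.1% of all genes were). *Kcnq1ot1*, the antisense RNA of the *Kcnq1* domain, was at 225 CPM (217–233), 423 (411–436) and 116 (111–122), with log2 ratios of 0.95 and 1.86, just under 2-fold at p1. *Impact*, at 148, 160.2 and 74.5 CPM, had 0.98 and 1.09 and was likewise just under it at p1. TMM scaling shifted the median log2 ratio of all genes at p1 from −0.09 to 0.03, so that the p1 call of both genes depends on the scaling. *Peg3* was at 44.4, 205 and 66.6 CPM and *Plagl1* at 22.8, 122 and 42.5 CPM, below ESC at p1 and above it at p15. *Snrpn* was at 213, 153 and 133 CPM, and *Peg10* did not enter, at 6.98, 6.37 and 1.49 CPM. Of 20 maternally expressed genes 12 entered, with 2 higher and 2 lower at both passages (4.72% and 2.79% of all genes). The lower members were *Phlda2*, a growth-restraining protein of the placenta, at 20.0, 22.6 and 123 CPM, and its neighbour *Slc22a18*, a transporter, with 0, 5 and 181 UMIs (12.2 CPM in ESC). They lie next to each other at chr7:143473736-143503150 in the *Kcnq1* domain. The higher members were *Igf2r*, a receptor that clears IGF2, at 20.6, 35.2 and 8.85 CPM, and *Gnas*, a G protein subunit, at 5.49, 11.6 and 2.09 CPM, and both were below 2-fold at 1 passage or both when cells were weighted equally, after thinning and without the highest cell. *Meg3* was at 73.5, 30.6 and 121 CPM, and in the median cell at 2.59, 0.867 and 78.3 CPM, with a UMI in 28 of 48, 16 of 32 and 40 of 45 cells. *H19* had at most 0.462 CPM in the 3 libraries. The Y chromosome genes *Ddx3y* (53.2, 44.9 and 45.7 CPM), *Eif2s3y* (118, 60.5 and 114 CPM) and *Uty* (21.7, 26.5 and 21.9 CPM) were present in all 3, and *Kdm5d* was at most 1.85 CPM. *Xist* was at 35.1, 73.8 and 40.7 CPM, against 0.296 in SSC day 0. As the strand setting of the counting is not given, reads from the other strand may be included at *Xist* and at *Kcnq1ot1*.

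DNA methylation genes, metabolism and growth showed few genes at both passages, where of all genes 4.72% were higher and 2.79% lower. None of the 11 genes of the DNA methylation machinery was counted. *Dnmt3l*, the cofactor of de novo methylation, was at 199, 22.1 and 41.9 CPM, higher than ESC at p1 only, whereas *Dnmt1* (155, 218 and 172 CPM), *Dnmt3b* (165, 106 and 109.7 CPM) and *Tet1* (358, 469.8 and 332 CPM) stayed within 2-fold. None of the 17 glycolytic enzymes that entered was counted (medians −0.22 and −0.19), *Hk2* being at 400.3, 332 and 443 CPM. In the hypoxia and glucose transport list *Egln1*, an oxygen-sensing hydroxylase of HIF, was at 8.62, 22.9 and 1.49 CPM and *Ndrg1* at 27.3, 27.5 and 10.5 CPM, both higher (2 of 10 members, against 4.72% of all genes). *Gldc*, the glycine decarboxylase, was the 1 of 9 serine, glycine and threonine enzymes counted, at 56.6, 84.2 and 24.4 CPM, and *Ddit4*, an inhibitor of mTORC1, the 1 of 7 ATF4 targets, at 11.5, 36.8 and 3.98 CPM. Their calls were lost with equal weight per cell and without the highest cell, respectively. *Perp*, a desmosomal protein, was the 1 of 12 p53 targets counted, lower at 7.12, 7.57 and 23.4 CPM, and not with equal weight per cell. No member was counted among 13 cholesterol synthesis genes, 10 genes each of DNA replication (medians −0.44 and −0.39) and mitosis (−0.27 and −0.27), 2 metallothioneins and 79 ribosomal protein genes, which had medians of 0.31 and −0.10 and took 76144, 56983 and 62184 CPM in sum.

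**Figure D4:**
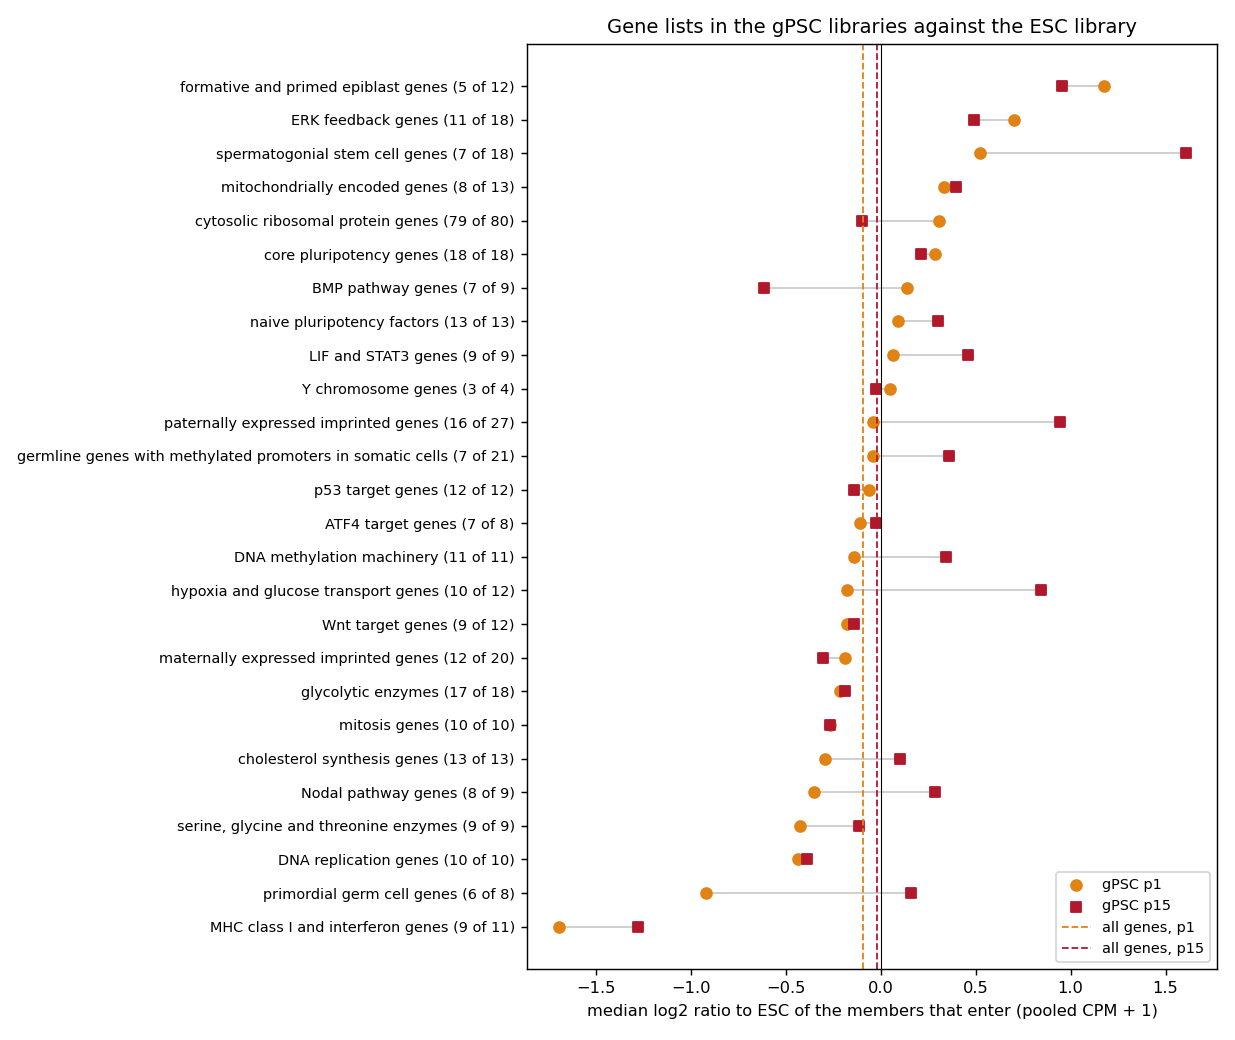
Median log2 ratio to ESC (pooled CPM + 1) of the members that entered, for each gene list with at least 3 of them, at p1 (circles) and p15 (squares); dashed lines give the median of all genes. The MHC class I and interferon list lies lowest at both passages, with medians of −1.70 and −1.28.

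The counted genes were spread over the genome. Of the genes that entered, 97.0% had a position, and the share of genes higher at both passages ran from 2.56% on chromosome 1 to 6.71% on chromosome 19 among the autosomes, and was 4.40% on the X chromosome. Genes lower at both passages made up between 1.18% on chromosome 5 and 4.40% on chromosome 17, the chromosome of *Ubd*, *Rnaset2b*, *Myo1f*, *Dynlt1a*, *H2-D1*, *T* and *Ier3*. Chromosome 14 (4.375%) and chromosome 11 (3.99%) were close to it. Median log2 ratios of the autosomes and the X chromosome lay between −0.18 and −0.01 at p1 and between −0.13 and 0.13 at p15, with the X chromosome lowest at p1 and highest at p15. The lower genes had shorter longest transcripts, with a median of 2.32 kb against 3.61 kb for the higher genes and 3.30 kb for all genes. Their median GC content was 51.6%, against 49.8% for the higher genes and 49.3% for all genes. Transcript length thus departed from that of all genes in opposite directions for higher and lower genes. Both groups had a lower level: the median of the mean CPM was 26.5 for higher, 11.3 for lower and 45.9 for all genes. The part of length or level in the difference was not tested.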

How the data were processed

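Single cells were picked by mouth pipette and profiled by modified STRT-seq, a plate-based method that counts transcripts by unique molecular identifiers (UMIs). For each library the authors deposited a table of UMI counts, not normalized, with genes in rows and barcodes in columns. Per the submitters' processing notes, reads were aligned to mm10 with STAR (2.7.2b) and assigned to genes with featureCounts (2.0.0). The gene annotation and the strand setting of the counting are not given in the sources used here. The authors also deposited, in a cell annotation, the counts of genes and UMIs per cell, the percent of mitochondrial UMIs and a batch code, and the UMI totals of all cells used here equalled those computed from the count files.

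Cells with at least 2000 genes and at most 5% mitochondrial UMIs were kept, which left out 3 ESC barcodes and 1 SSC barcode. Doublets were not called, since cells were picked singly. Counts were summed over the cells of a library and divided by the total of that library (CPM). A gene entered with at least 10 CPM in at least 1 of 3 libraries and was counted with at least 2-fold in 1 direction at both passages, on the log2(CPM + 1) scale, which understates the change of low genes. Folds with their counting intervals were computed without the added 1. With 0 UMIs on one side, a bound was set at 3 counts per library. Intervals are exact Poisson intervals at 95%.

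Named genes were the 12 higher and 12 lower with the largest smaller ratio of the 2 passages, among genes with a UMI in at least 50% of the cells of each library on the higher side and with unnamed models left out. Members of the 33 gene lists that were counted, and a fixed set of marker, imprinted and sex chromosome genes, were named as well, and further members are given for comparison. 1 member of the MHC class I and interferon list enters its counts and medians but is not reported here. The members and lists were chosen with earlier results of these data known. Gene positions and the longest transcript of each gene were read from the GENCODE annotation of GRCm38, and promoter sequences from RefSeq (GRCm38.p6), of which 77.4% of the genes that entered had an entry, too few to compare promoters of counted genes with others.

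The alternatives were other scalings (TMM, median of ratios, a total without abundant genes), equal weight per cell, cells thinned to 100000 UMIs without the shallower cells, leaving out the highest cell, no cell filter, other minimum levels, another pseudocount and 3-fold. Python (3.11.15), numpy (2.4.6), pandas (2.3.3), scipy (1.17.1), matplotlib (3.10.9), R (4.3.3) and edgeR (4.0.16, for TMM factors only) were used. The counting rule was also tried on simulated data, with changes larger than 2-fold in abundant genes only. This trial does not bear on calls near 2-fold or near the minimum level.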

Additional observations from a re-analysis of the deposited data

Results flagged for a closer look

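*Dio3*, an imprinted gene for a deiodinase that inactivates thyroid hormone, was more than 2-fold from ESC in opposite directions at the 2 passages, with log2 ratios of −2.01 at p1 and 1.53 at p15. It had 1 UMI in the 48 p1 cells, 124 UMIs in the p15 library (11.4 CPM, 20 of 32 cells) and 49 UMIs in ESC (3.31 CPM, 7 of 45 cells). The gene was named after its values were seen, and the difference between the passages was not tested.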

How the results depend on the processing

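The counts of 453 higher and 268 lower genes stayed within 1.5 times under every other scaling, weighting, thinning, cell filter and pseudocount tried. TMM scaling gave 566 higher and 221 lower genes (71.9% of those counted were higher, against 62.8%), of which 453 and 221 were also counted in the comparison as reported, and it shifted the median log2 ratio of all genes at p1 from −0.09 to 0.03. Median-of-ratios scaling gave 579 and 228 genes, and thinning gave 493 and 298, of which 370 and 213 were also counted as reported. The minimum level and the fold had the largest effect: with at least 1 CPM there were 807 lower genes (669 higher), with at least 50 CPM 199 higher and 61 lower, and with at least 3-fold 123 higher and 91 lower. The share of higher genes among those counted was 45.3% at the first of these minimum levels and 76.5% at the second. No counted gene named here changed direction under any alternative run for single genes (scaling, weighting, thinning and the highest cell). Under these alternatives 81 ratios of single genes moved past the tolerance set for them and 723 did not. List medians moved past theirs in 119 cases and held in 265, and chromosome medians in 40 and 200, so that small medians are not firm. No paired analysis was possible because each group was 1 library. No library could be left out for the same reason, and the batch code cannot be told apart from the contrast of gPSC with ESC. Genes under 10 CPM in all 3 libraries, such as *Tap1*, were left out by the minimum level and not for lack of depth.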
